A study of Mus musculus with 15 samples.

Results

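Ephrins, semaphorins, netrins and Slits are guidance cues, and Eph receptors, plexins, neuropilins, Robo and Unc5 proteins are the receptors that read them. The gene families are best known from the steering of growing axons, and in the lung they also act in branching, vessel patterning and contacts between epithelial cells. Ephrins stay on the membrane and signal through Eph receptor tyrosine kinases. Secreted class 3 semaphorins mostly bind a neuropilin, which signals together with a plexin, whereas membrane semaphorins of the other classes bind plexins directly. Slits bind Robo receptors, and netrins bind Unc5 receptors besides other partners.

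The members were chosen by symbol: Epha, Ephb, Efna, Efnb, Sema, Slit and Ntn genes with a number, the A to D plexins and Unc5 receptors, Nrp1 and Nrp2, and Robo1 to Robo3. The rule gave 66 genes of the 18193 with a probe set of their own, and each gene was read from its brightest one. Of these genes 53 had a mean signal above 100 over the 15 arrays and were tested, among 11603 tested genes in all. Efnb3, Epha5, Epha6, Epha8, Epha10, Ephb1, Ephb6, Ntn3, Robo2, Robo3, Sema5b, Slit1 and Unc5d lay at or below this limit and were not tested, and their highest group mean was 102. Efna4, Ntn5, Sema3d, Sema6b and Slit3 passed the limit although at least 1 of their group means lay at or below 100. Efna4, Ntn5 and Sema6b passed it only through their dysplasia arrays, and the counts of genes higher in dysplasia below include Efna4 and Sema6b. Sema3d and Slit3 passed it only through the arrays of the other groups, and the counts of genes lower in dysplasia include both. The counts of groups that did not overlap include Efna4, Sema3d, Sema6b and Slit3. Counts over the tested genes say nothing of the 13 genes not tested.

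Laser-microdissected lung tissue of mice was hybridised to Affymetrix mouse genome arrays, with 5 arrays of dysplastic foci, 5 of transgenic but unaltered lung and 5 of non-transgenic lung. The transgenic mice carried SP-C/c-raf, in which the promoter of surfactant protein C, a product of alveolar type 2 cells, drives c-raf, a kinase of the MAPK pathway. Dysplastic and unaltered tissue were taken from the same transgenic animals, 5 to 7 months old, and the non-transgenic littermates were 7 to 10 months old, all on a C57BL/6 background. RNA was pooled over an area of tissue within 1 animal, so each array is a mixture of the cells cut out. The groups are named dysplasia, transgenic and non-transgenic below, and values by array run from array 1 to array 5 of the group.

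Every array was scaled to the same trimmed mean signal, and 44.1% to 49.9% of the probe sets had a signal above 100. Dysplasia 4 carried both Xist, at a signal of 9674, and Y-linked Eif2s3y, at 495, and transgenic 2 is unaltered tissue by its title but tumor by its tissue entry. The actin 5' to 3' signal ratio, a measure of RNA integrity, was 57.1% at the median of the dysplasia arrays, 38.9% at that of the transgenic and 31.0% at that of the non-transgenic arrays, and ran from 12.5% to 75.2%. Xist and Y-linked transcripts marked 3 dysplasia, 4 transgenic and 1 non-transgenic arrays as male. The summed signal of 5 alveolar type 2 markers ran from 82065 to 139329 in dysplasia. It was 79656 to 131547 in transgenic and 72744 to 98180.1 in non-transgenic lung. Between dysplasia and transgenic tissue limma called 0 of the 5, with 1 (Abca3, higher) at an unadjusted p under 0.05. Against non-transgenic lung 1 of the 5 was called higher in dysplasia and 0 lower. Over all tested genes 18.6% were higher and 21.0% lower in the first comparison, and 24.7% and 26.0% in the second.

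The first question was how dysplastic tissue differed from unaltered tissue of the same mice. More guidance genes fell than rose in dysplasia: 27 of the 53 tested genes (50.9%) were lower, 13 (24.5%) were higher and 13 made no call at an adjusted p under 0.05 (limma on log2 of the signal plus 50, Benjamini-Hochberg over all 21658 tested probe sets, n = 5 arrays per group). Among all tested genes 21.0% were lower and 18.6% were higher. The median log2 difference was -0.44 over the guidance genes and -0.01 over all tested genes. Dysplasia arrays did not overlap with transgenic arrays for 32 of the 53 genes (60.4%), 10 above and 22 below, against 31.3% of all tested genes. Of the 31 tested ligands 17 were lower and 6 were higher, and of the 22 tested receptors 10 were lower and 7 were higher.

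Against non-transgenic lung 29 genes (54.7%) were lower, 16 (30.2%) were higher and 8 made no call, with 26.0% and 24.7% of all tested genes. The groups did not overlap for 39 genes (73.6%), 13 above and 26 below, against 39.9% of all tested genes. The median log2 difference was -0.56. This comparison shares its dysplasia arrays with the one above, and the mice also differed in age and sex. In both comparisons 27 genes were lower and 12 were higher. Epha1 was higher only against transgenic tissue, 4 genes were higher (Efna3, Ephb3, Plxna2 and Sema4b) and 2 were lower (Efnb1 and Sema6c) only against non-transgenic tissue, and 7 made no call in either, but the difference between the comparisons was not tested. Without dysplasia 4 and transgenic 2, left out after the data had been seen, 13 genes were higher and 26 lower than in transgenic tissue, and 14 higher and 28 lower than in non-transgenic tissue.

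Transgenic but unaltered tissue was then set against non-transgenic lung. These groups also differed in age and in the share of males, which cannot be told apart from the transgene. With limma 0 of the 53 genes were higher and 0 were lower, against 1.59% and 0.121% of all tested genes, while 5 were higher and 6 lower at an unadjusted p under 0.05. Log2 differences ran from -0.47 for Epha4 to 0.63 for Sema6b with a median of -0.09, and the standard errors ran from 0.08 to 0.51. The groups did not overlap for 2 genes (3.77%), against 5.76% of all tested genes: Plxnb2 was above, at 2478 ± 211 in transgenic lung and 2006 ± 47.6 in non-transgenic tissue, and Sema3e was below, at 2991 ± 415 and 3729.8 ± 223 (mean ± SD, n = 5 each). Neither passed the test (adjusted p = 0.126 and 0.227). Epha4 averaged 307 ± 59.0 in transgenic lung and 451 ± 111 in non-transgenic tissue, with an adjusted p of 0.305. With the array number as a block it was 0.0485, but the mice differ, so the number does not pair these arrays.

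**Figure D1:**
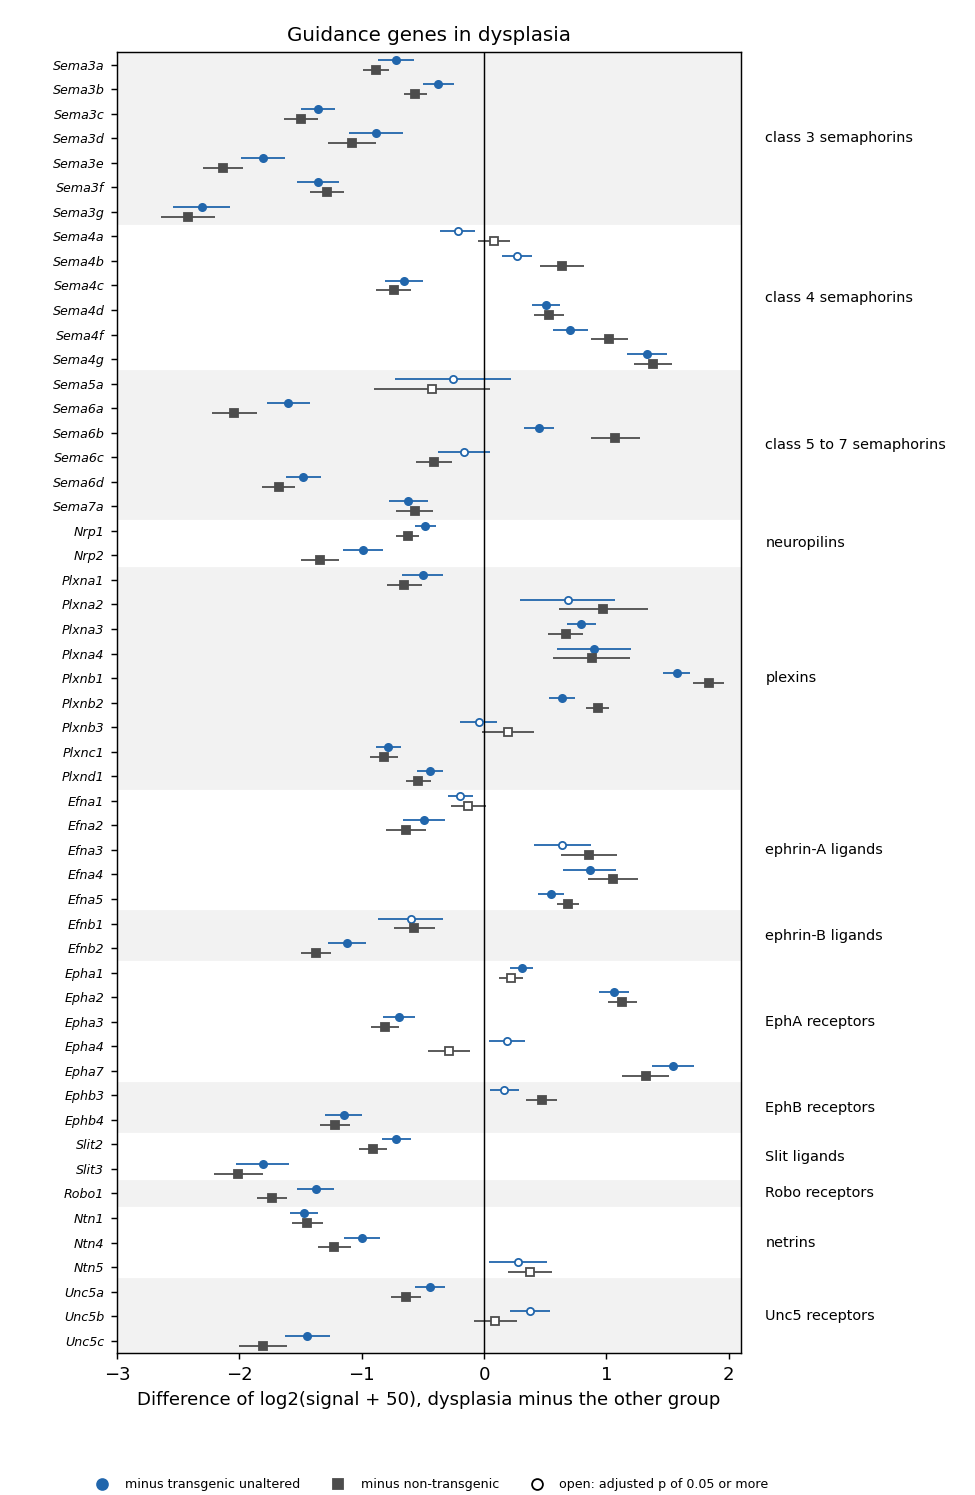
Difference of log2(signal + 50) between dysplasia and transgenic unaltered tissue (circles) or non-transgenic tissue (squares) for the 53 tested guidance genes by family, as estimate ± SE from limma with 5 arrays per group; open symbols had an adjusted p of 0.05 or more. All 7 class 3 semaphorins lie left of 0, down to -2.42 for Sema3g, and Plxnb1 lies farthest right at 1.84.

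Markers of other lung cells were counted as well. Over all tested genes 21.0% were lower and 18.6% higher in dysplasia than in transgenic tissue. Against non-transgenic tissue the shares were 26.0% and 24.7%. Several marker lists are short, and their counts were not tested against these shares. Endothelial markers were lower in dysplasia for 15 of 15 genes in both comparisons, and their summed signal was 25892 to 37283 in dysplasia, 72538 to 97811 in transgenic lung and 82504 to 105983 in non-transgenic tissue. Smooth muscle and pericyte markers fell for 5 of 7 tested genes against transgenic and 7 of 7 against non-transgenic tissue, mesothelial markers for 3 of 3 and fibroblast markers for 4 of 10 in both comparisons. Alveolar type 1 markers fell for 5 of 8 and rose for 1 of 8 in both. Macrophage markers fell for 5 and rose for 2 of 8 against transgenic tissue, and fell for 2 and rose for 3 against non-transgenic tissue. Club cell markers rose for 2 and fell for 1 of 4 against transgenic tissue, and rose for 0 and fell for 1 against non-transgenic tissue. The summed signal of 5 ciliated cell markers was 1203 to 1497 in dysplasia, 231 to 429.6 in transgenic lung and 237 to 534 in non-transgenic tissue, and the 1 of them that was tested rose in both comparisons. Of the 8 markers of nerve and glia 6 had a probe set and 0 were bright enough to test, with sums of 337 to 442 in dysplasia, 185 to 237 in transgenic lung and 184 to 257 in non-transgenic tissue. Between transgenic and non-transgenic tissue 3 of 8 macrophage markers were higher and 1 of 7 smooth muscle and pericyte markers was lower. The shares over all tested genes were 1.59% and 0.121%, and no other marker was called. Macrophage sums were 18855 to 21948 in transgenic lung and 13720 to 17730 in non-transgenic tissue. Many guidance genes are known from vessels and stroma, and the part of these cells in the results below was not tested. In such bulk tissue fewer cells of a type and less RNA per cell cannot be told apart.

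Sequences are shown for the genes with the 2 largest rises and the 2 largest falls against transgenic tissue that have a window in the RefSeq table (GRCm38.p6), with 250 bases before the annotated start of each. The windows lie at chr9:109095186-109095435 for Plxnb1, chr4:28812881-28813130 for Epha7, chr14:31217623-31217872 for Sema3g and chr11:35121206-35121455 for Slit3, all on the plus strand. Capitals mark GC boxes (GGGCGG on either strand) and Ets cores (CCGGAA on either strand).
Plxnb1: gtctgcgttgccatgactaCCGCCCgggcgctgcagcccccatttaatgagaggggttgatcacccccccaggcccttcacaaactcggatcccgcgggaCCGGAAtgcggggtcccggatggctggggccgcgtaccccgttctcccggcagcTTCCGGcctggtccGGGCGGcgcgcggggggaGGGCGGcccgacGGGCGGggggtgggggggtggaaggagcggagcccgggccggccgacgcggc
Epha7: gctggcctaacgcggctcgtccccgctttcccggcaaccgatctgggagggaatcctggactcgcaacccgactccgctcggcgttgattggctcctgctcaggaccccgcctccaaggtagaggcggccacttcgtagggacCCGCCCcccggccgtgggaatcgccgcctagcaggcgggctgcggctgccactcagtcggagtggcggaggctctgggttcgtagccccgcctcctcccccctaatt
Sema3g: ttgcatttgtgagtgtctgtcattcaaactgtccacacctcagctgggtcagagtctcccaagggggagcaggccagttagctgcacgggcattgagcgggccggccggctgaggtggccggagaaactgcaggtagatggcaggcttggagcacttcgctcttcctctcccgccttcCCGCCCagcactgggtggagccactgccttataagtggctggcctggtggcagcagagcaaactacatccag
Slit3: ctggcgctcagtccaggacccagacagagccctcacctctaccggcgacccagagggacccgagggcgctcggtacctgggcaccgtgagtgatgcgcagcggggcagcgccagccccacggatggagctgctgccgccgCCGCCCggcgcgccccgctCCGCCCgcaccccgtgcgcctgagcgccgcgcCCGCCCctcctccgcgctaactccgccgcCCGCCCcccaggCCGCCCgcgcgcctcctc
The GC box stands 4 times in the window of Plxnb1 and 5 times in that of Slit3, and once each in those of Epha7 and Sema3g, while Plxnb1 alone of the 4 holds the Ets core. Of the tested guidance genes 47 have a window, and 36 of these (76.6%) hold a GC box, against 59.8% of 9392 tested genes and 32.9% of all 27025 genes in the table. The GC box was found for 9 of 12 genes that rose and 17 of 22 genes that fell against transgenic tissue. The Ets core was found for 4 of the 47, against 22.2% of the tested genes. The AP-1 letters TGANTCA were found for 2 of the 47, against 4.08%, and the CRE letters TGACGTCA for 1, against 2.63%. Letters of different motifs can overlap, each motif was counted on its own on both strands, and a match is a run of letters only.

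Among ligands the class 3 semaphorins fell throughout, at 7 of 7 genes in both comparisons, against 21.0% and 26.0% of all tested genes. These secreted proteins repel or attract axons and endothelial cells. Sema3g, known from arterial endothelium and as a ligand of neuropilin-2, had signals of 868, 482, 486, 1169 and 548 in dysplasia, against 3709, 2595, 3686, 3729.8 and 3998 in transgenic lung and 3457, 4470.0, 3560.5, 3748 and 3786 in non-transgenic tissue. Every dysplasia array lay below every other array. Its mean was 4.99-fold lower than in transgenic (log2 difference -2.31 ± 0.23 (SE), adjusted p = 2.85e-05) and 5.36-fold lower than in non-transgenic tissue (-2.42 ± 0.22, adjusted p = 7.03e-06), the largest falls of the 53 genes on the log2 scale. Sema3e, a ligand of plexin D1 that binds it without a neuropilin, gave 521, 1074, 809, 994 and 773 in dysplasia, against 2278, 3082, 3311, 3254 and 3028 in transgenic lung and 4012, 3596, 3610.4, 3923 and 3508 in non-transgenic tissue. It fell 3.59-fold (-1.81 ± 0.18, adjusted p = 2.65e-05) and 4.47-fold (-2.13 ± 0.16, adjusted p = 2.09e-06). For Sema3e the highest dysplasia array was again under the lowest of the others.

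Sema3c, a ligand needed for the outflow vessels of the heart, had 5424, 4027, 3821, 6139 and 4487 in dysplasia, against 12788, 10825, 12965, 13212 and 11158 in transgenic lung and 13304, 13329, 16063, 12279 and 12119 in non-transgenic tissue. It fell 2.55-fold (-1.36 ± 0.14, adjusted p = 2.92e-05) and 2.81-fold (-1.50 ± 0.14, adjusted p = 9.03e-06), with no overlap of the groups. Sema3f, which acts through neuropilin-2, had 782, 799, 1021, 1002 and 792 in dysplasia, against 2449.9, 1482, 2670.5, 2422 and 2825 in transgenic lung and 2465, 1880.5, 2608, 1726 and 2460.1 in non-transgenic tissue. Transgenic 2 was the lowest of the transgenic arrays and still lay above all dysplasia arrays. The fall was 2.69-fold (-1.36 ± 0.17, adjusted p = 0.000108) and 2.53-fold (-1.28 ± 0.14, adjusted p = 2.27e-05). Sema3d gave 30.7, 74.2, 104, 113 and 48.5 in dysplasia, against 129, 254, 212, 151 and 133 in transgenic lung and 251, 175, 154, 224 and 225 in non-transgenic tissue. The groups were apart and Sema3d was called lower in both comparisons, but 3 of the 5 dysplasia arrays lay under the signal limit. Sema3d passed this limit only through the arrays of the other groups, so neither a fold nor a p is given.

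The 2 other class 3 ligands fell by less. Sema3a, the ligand of neuropilin-1, averaged 556 ± 84.7 in dysplasia, 955 ± 189 in transgenic lung and 1061 ± 75.4 in non-transgenic tissue (adjusted p = 0.00292 and 5.67e-05). Sema3b averaged 443 ± 52.9 in dysplasia, 593 ± 106 in transgenic lung and 676 ± 47.2 in non-transgenic tissue (adjusted p = 0.0409 and 0.000539). Sema3b overlapped between dysplasia and transgenic arrays. That call was lost without dysplasia 1, 2, 4 or 5 or transgenic 1, 3 or 4, each left out alone, at adjusted p-values of 0.0646 to 0.0989. Dimmer probe sets of both genes made no call by limma. Adjusted p-values for Sema3a were 0.0862 against transgenic and 0.406 against non-transgenic tissue. For Sema3b they were 0.275 and 0.488 against transgenic and 0.107 and 0.308 against non-transgenic tissue.

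By their brightest probe sets both neuropilins, the co-receptors of these ligands, fell. Nrp2 had 410.3, 538, 344, 513 and 354 in dysplasia, against 745, 1132, 708, 1081 and 885 in transgenic lung and 1194, 1496, 888, 1105 and 1149.7 in non-transgenic tissue. It was 2.11-fold (-0.99 ± 0.16, adjusted p = 0.000739) and 2.70-fold lower (-1.34 ± 0.16, adjusted p = 4.01e-05), with no overlap. Nrp1, which also binds VEGF on endothelium, averaged 7682 ± 107 in dysplasia, 10781 ± 984 in transgenic lung and 11933 ± 1368 in non-transgenic tissue. Its 5 dysplasia arrays lay close together and below all others (adjusted p = 0.00123 and 0.000236). The other tested probe sets of Nrp1 were lower by sign but made no call against transgenic tissue (limma adjusted p = 0.0566, 0.0778 and 0.871). Against non-transgenic tissue their adjusted p-values were 0.0149, 0.0595 and 0.857. The endothelial marker sums given above moved the same way as these genes.

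Of the 9 plexins 4 rose and 3 fell against transgenic tissue, where 18.6% of all tested genes rose and 21.0% fell. Against non-transgenic tissue 5 rose and 3 fell, beside 24.7% and 26.0% of all tested genes. Plxnb1, the receptor of Sema4d, had the largest rise of the 53 genes on the log2 scale in both comparisons: its signals were 3183, 3025, 4004, 2803 and 3228 in dysplasia, against 905, 1094, 1141, 1040.0 and 1083 in transgenic lung and 739.7, 732, 953, 941 and 1008 in non-transgenic tissue. That was 3.09-fold (1.57 ± 0.11, adjusted p = 3.25e-06) and 3.71-fold higher (1.84 ± 0.13, adjusted p = 1.09e-06). All dysplasia arrays stood well above every other array. Plxnb2, the receptor of Sema4c, rose to 3888 ± 452 in dysplasia, against 2478 ± 211 in transgenic lung and 2006 ± 47.6 in non-transgenic tissue (adjusted p = 0.000695 and 1.32e-05). The third B plexin, Plxnb3, had 141 ± 37.9 in dysplasia, 144 ± 17.9 in transgenic lung and 119 ± 48.2 in non-transgenic tissue and made no call (log2 differences -0.05 ± 0.15 and 0.20 ± 0.21).

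The A plexins signal for neuropilins and class 6 semaphorins. Plxna3 rose to 316 ± 56.8 in dysplasia, against 159 ± 13.1 in transgenic lung and 180.5 ± 38.3 in non-transgenic tissue (adjusted p = 0.000309 and 0.00282). Plxna1 fell to 1144 ± 101, against 1686 ± 470.4 and 1852 ± 403 (adjusted p = 0.0409 and 0.00306). The transgenic arrays of Plxna1 ran from 1236 to 2324 and reached the dysplasia arrays, and the call against them was lost without any 1 of the dysplasia arrays or without transgenic 3, 4 or 5, at adjusted p-values of 0.0545 to 0.101. Plxnc1, the receptor of Sema7a, fell to 498 ± 48.8 in dysplasia, against 893 ± 99.2 in transgenic lung and 918 ± 137 in non-transgenic tissue (adjusted p = 0.000163 and 0.000147). Plxnd1, the endothelial receptor of Sema3e, fell to 1315 ± 154, against 1805 ± 168 and 1926 ± 179 (adjusted p = 0.00699 and 0.00139). Dysplasia arrays of Plxnc1 and Plxnd1 lay below all others.

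**Figure D2:**
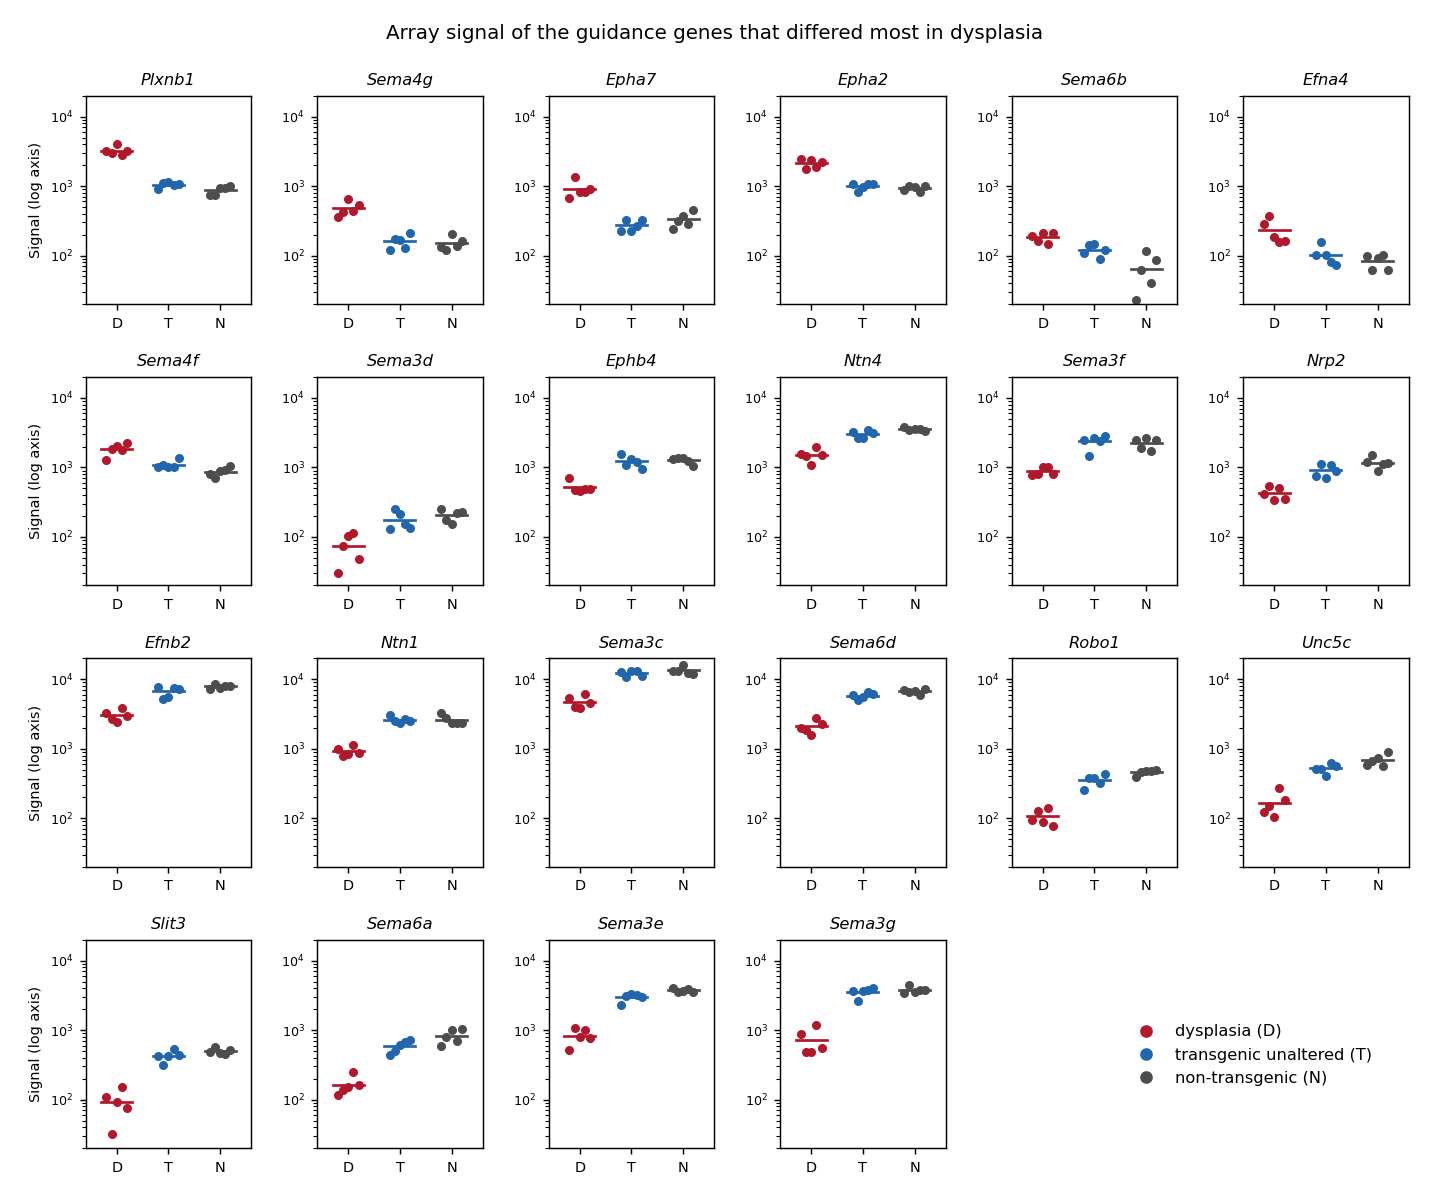
Signal of each array (points, log axis) and group mean (lines) for the 22 guidance genes with an adjusted p under 0.05 and a log2 difference of at least 1 in a dysplasia comparison, in dysplasia (D), transgenic unaltered (T) and non-transgenic tissue (N), 5 arrays each. The 7 genes of the top left, from Plxnb1 to Sema4f, were higher in dysplasia and the 15 others were lower.

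Plxna2, Plxna4 and the ligand Sema5a varied widely within each group. Plxna4 had 693, 856, 312, 499 and 349 in dysplasia, against 373, 378, 138, 251 and 181 in transgenic lung and 301, 494, 226, 207 and 137 in non-transgenic tissue. Arrays 1 and 2 were the brightest of each group, and the groups overlapped. The actin ratio moved with it: it was 69.9%, 75.2%, 28.9%, 57.1% and 25.1% in dysplasia, 46.3%, 63.4%, 38.9%, 36.1% and 12.5% in transgenic lung and 54.6%, 72.8%, 31.0%, 27.5% and 14.1% in non-transgenic tissue.

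Plxna4 was called higher by 0.90 ± 0.30 against transgenic (adjusted p = 0.0395) and 0.88 ± 0.32 against non-transgenic tissue (adjusted p = 0.0417), and by 0.69 ± 0.22 and 0.59 ± 0.12 with the actin ratio in the model (adjusted p = 0.0298 and 0.00159). The first call was lost without dysplasia 1, 2 or 4 or transgenic 3, 4 or 5, at adjusted p-values of 0.0668 to 0.0933. The second was lost without dysplasia 1, 2 or 4 or non-transgenic 1, 3, 4 or 5, at 0.0558 to 0.0945. Plxna2, a receptor of Sema6a, averaged 1493 ± 693 in dysplasia, 956 ± 646 in transgenic lung and 736 ± 359 in non-transgenic tissue. It passed against non-transgenic tissue only (adjusted p = 0.0481), a call lost without dysplasia 1, 2 or 4 or non-transgenic 3, 4 or 5 at adjusted p-values of 0.0854 to 0.110. Against transgenic tissue its adjusted p was 0.218, and 0.00311 with the array number as a block. Sema5a had 184 ± 117 in dysplasia, 241 ± 172 in transgenic lung and 279.6 ± 211 in non-transgenic tissue and made no call (adjusted p = 0.739 and 0.508). With the actin ratio in the model Sema5a was lower by -0.67 ± 0.18 and -0.87 ± 0.11 (adjusted p = 0.0153 and 6.73e-05).

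**Figure D3:**
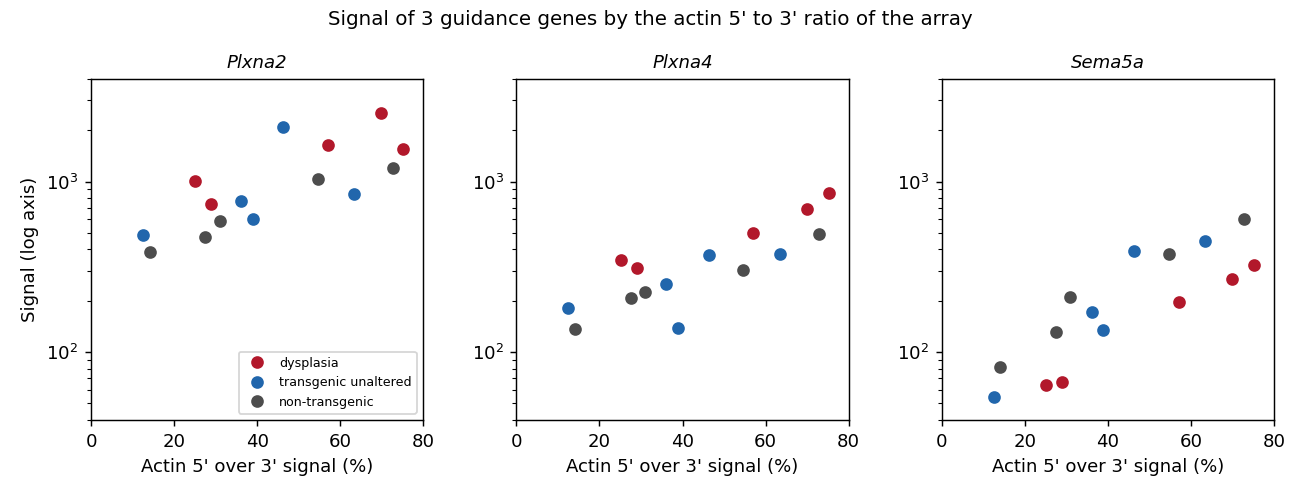
Signal (log axis) of Plxna2, Plxna4 and Sema5a on each of the 15 arrays against the actin 5' to 3' signal ratio of the same array in percent, coloured by group. In each group the brightest array of each gene is 1 of the 2 arrays with the highest ratio, and the ratio ran from 12.5% to 75.2%.

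Class 4 semaphorins are membrane ligands of the B plexins. Of the 6 tested genes 3 rose and 1 fell against transgenic tissue, where 18.6% of all tested genes rose and 21.0% fell. Against non-transgenic tissue 4 rose and 1 fell, beside 24.7% and 26.0% of all tested genes. Sema4g, a ligand of plexin B2, had 358, 428, 641, 443 and 525 in dysplasia, against 119, 175, 165, 129 and 209 in transgenic lung and 134, 122, 204, 139 and 161 in non-transgenic tissue. It was 3.01-fold (1.33 ± 0.16, adjusted p = 8.72e-05) and 3.15-fold higher (1.38 ± 0.15, adjusted p = 2.78e-05), and the dysplasia arrays lay above all others. Sema4f had 1297, 1829, 2068, 1778 and 2235 in dysplasia, against 1023, 1091, 1017, 1010.3 and 1347 in transgenic lung and 804, 699, 891, 925 and 1048 in non-transgenic tissue. Dysplasia 1, at 1297, overlapped with transgenic 5, at 1347, and with no other array. The rise was 1.68-fold (0.71 ± 0.15, adjusted p = 0.00303) and 2.11-fold (1.02 ± 0.15, adjusted p = 0.00023).

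Sema4d, the ligand of plexin B1 that also acts on lymphocytes, rose to 1161 ± 145 in dysplasia, against 805 ± 99.2 in transgenic lung and 789.7 ± 118 in non-transgenic tissue (adjusted p = 0.00543 and 0.00451). Sema4c fell to 434 ± 99.8, against 704 ± 107 and 749 ± 93.5 (adjusted p = 0.00653 and 0.0016), and was the only class 4 member lower in both comparisons. Dysplasia arrays of both genes stood apart from all others. Sema4b averaged 410.3 ± 37.1 in dysplasia, 335 ± 63.3 in transgenic lung and 255 ± 80.7 in non-transgenic tissue and was called higher against non-transgenic tissue (adjusted p = 0.0126). Against transgenic tissue its adjusted p was 0.119, and 0.0443 with the array number as a block. Sema4a, known from immune cells, averaged 971 ± 122 in dysplasia, 1146 ± 233 in transgenic lung and 918 ± 159 in non-transgenic tissue. It made no call by this brightest probe set (adjusted p = 0.3 and 0.652). A second probe set, nearly as bright, was called higher in both comparisons (limma adjusted p = 0.0494 and 3.98e-05).

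Class 6 semaphorins, membrane ligands of A plexins, went both ways. Sema6a had 117, 138, 149.6, 253 and 160.1 in dysplasia, against 442, 509, 606, 681 and 729 in transgenic lung and 601, 796, 997, 703 and 1041 in non-transgenic tissue. It fell 3.63-fold (-1.60 ± 0.18, adjusted p = 4.48e-05) and 5.06-fold (-2.04 ± 0.18, adjusted p = 6.42e-06). Dysplasia 4 was the brightest dysplasia array and still lay below all others. Sema6d, a ligand of plexin A1, had 1967, 1890.2, 1584, 2760.1 and 2261 in dysplasia, against 5911, 5078, 5539, 6604 and 6077 in transgenic lung and 6980.5, 6534, 6751, 6043 and 7199 in non-transgenic tissue. It fell 2.79-fold (-1.48 ± 0.14, adjusted p = 2.1e-05) and 3.20-fold (-1.68 ± 0.13, adjusted p = 2.85e-06), again with no overlap.

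Sema6b gave 192, 162, 209, 147 and 208 in dysplasia, against 110.2, 139, 147, 89.4 and 121 in transgenic lung and 22.8, 61.5, 115, 40.4 and 85.3 in non-transgenic tissue. It was called higher in both comparisons, and the dysplasia arrays were the highest. But 4 of the 5 non-transgenic arrays lay under the signal limit. Sema6b passed this limit only through its dysplasia arrays, so neither a fold nor a p is given. Sema6c averaged 105 ± 37.6 in dysplasia, 125 ± 43.9 in transgenic lung and 151 ± 15.8 in non-transgenic tissue. It was called lower against non-transgenic tissue only (adjusted p = 0.0416), and 9 of the 10 single arrays ended this call when left out, all but dysplasia 2, at adjusted p-values of 0.0557 to 0.0947. Sema7a, a lipid-anchored ligand of plexin C1 and integrins, fell to 1581 ± 325 in dysplasia, against 2439 ± 404 in transgenic lung and 2343 ± 333 in non-transgenic tissue (adjusted p = 0.0104 and 0.0105), with overlap at the edges.

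Eph receptors of class A mostly bind the lipid-anchored A ephrins. Against transgenic tissue they rose for 3 of 5 genes and fell for 1, beside 18.6% and 21.0% of all tested genes. Epha7 had 667, 1341, 816, 831 and 915 in dysplasia, against 228, 326, 229, 269 and 321 in transgenic lung and 239, 310.2, 373, 286 and 458 in non-transgenic tissue. It was 3.33-fold (1.55 ± 0.17, adjusted p = 4.79e-05) and 2.74-fold higher (1.32 ± 0.19, adjusted p = 0.000196), with every dysplasia array above all others and dysplasia 2 the highest. Epha2, an epithelial receptor of ephrin-A1, gave 2491, 1732, 2405, 1853 and 2187 in dysplasia, against 1068, 817, 962, 1058 and 1053 in transgenic lung and 875, 1007, 972, 833 and 1014 in non-transgenic tissue. It was 2.15-fold (1.06 ± 0.12, adjusted p = 7.32e-05) and 2.27-fold higher (1.13 ± 0.12, adjusted p = 1.72e-05). The dysplasia arrays of Epha2 also stood clear of the others.

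Epha1 averaged 499 ± 34.6 in dysplasia, 395 ± 42.9 in transgenic lung and 423 ± 51.8 in non-transgenic tissue, and was called higher against transgenic tissue only (adjusted p = 0.0253 and 0.0911). That call was lost without dysplasia 2, 3 or 5 or transgenic 3 or 5, at adjusted p-values of 0.0519 to 0.0664. Epha3, known from mesenchymal cells, fell to 185 ± 38.6 in dysplasia, against 328 ± 43.3 in transgenic lung and 358 ± 24.9 in non-transgenic tissue (adjusted p = 0.00165 and 0.000187), with no overlap. Epha4 averaged 355 ± 59.5 in dysplasia, 307 ± 59.0 in transgenic lung and 451 ± 111 in non-transgenic tissue, with no call (adjusted p = 0.381 and 0.215).

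The A ephrins showed a split as well. Efna4 had 288, 372, 183, 159 and 162 in dysplasia, against 100.2, 154, 101, 81.5 and 72.2 in transgenic lung and 97.1, 61.1, 90.9, 100.2 and 61.3 in non-transgenic tissue. It was called higher in both comparisons, with dysplasia 1 and 2 far above the other 3 dysplasia arrays and all 5 above the other groups. But 2 of the 5 transgenic and 4 of the 5 non-transgenic arrays lay under the signal limit. Efna4 passed this limit only through its dysplasia arrays, so neither a fold nor a p is given. Efna5 rose to 328 ± 23.8 in dysplasia, against 210.1 ± 36.0 in transgenic lung and 186 ± 22.8 in non-transgenic tissue (adjusted p = 0.00232 and 0.000121). Its groups did not overlap either. Efna3 averaged 279 ± 99.1 in dysplasia, 157 ± 45.3 in transgenic lung and 128 ± 37.1 in non-transgenic tissue. It was higher than in non-transgenic tissue (adjusted p = 0.0106), while against transgenic tissue the adjusted p was 0.0536, and 0.000696 with the array number as a block.

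Efna2 fell to 136 ± 46.7 in dysplasia, against 206 ± 25.5 in transgenic lung and 233 ± 18.9 in non-transgenic tissue (adjusted p = 0.0454 and 0.00846). The call against transgenic tissue was lost without any 1 array but dysplasia 4 or transgenic 4, at adjusted p-values of 0.0535 to 0.0889. Efna1, the ligand of Epha2, averaged 1756 ± 119 in dysplasia, 2022 ± 236 in transgenic lung and 1956 ± 417 in non-transgenic tissue and made no call (adjusted p = 0.168 and 0.504), with log2 differences of -0.19 ± 0.10 and -0.13 ± 0.14.

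Efnb2 and Ephb4, the ligand of arterial and the receptor of venous endothelium, both fell. Efnb2 had 3226, 2705, 2455, 3847 and 2971 in dysplasia, against 7878, 5246, 5484, 7565 and 7317 in transgenic lung and 7254, 8629, 7563, 8075 and 7887 in non-transgenic tissue. It was 2.20-fold (-1.12 ± 0.16, adjusted p = 0.000222) and 2.59-fold lower (-1.37 ± 0.12, adjusted p = 4.96e-06), and the groups were apart. Ephb4 gave 702, 478, 461, 482 and 486 in dysplasia, against 1586, 1071, 1306, 1197 and 944 in transgenic lung and 1319, 1362, 1387, 1243 and 1049 in non-transgenic tissue. Dysplasia 1 was above the other 4 dysplasia arrays, which lay close together, and below all arrays of the other groups. The fall was 2.34-fold (-1.15 ± 0.15, adjusted p = 0.000168) and 2.44-fold (-1.22 ± 0.13, adjusted p = 1.59e-05). The 15 endothelial markers had median log2 differences of -1.68 and -1.85 in the same comparisons.

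The other B family members differed less. Ephb3, an epithelial receptor known from the intestine, averaged 1469 ± 259.8 in dysplasia, 1290.5 ± 78.7 in transgenic lung and 1041 ± 138 in non-transgenic tissue and was called higher against non-transgenic tissue only (adjusted p = 0.312 and 0.0116). Efnb1 averaged 1274 ± 351 in dysplasia, 2025 ± 855 in transgenic lung and 1866 ± 143 in non-transgenic tissue and was called lower against non-transgenic tissue (adjusted p = 0.0159). Transgenic 1, at 3417, stood above the other transgenic arrays of Efnb1. Against transgenic tissue its adjusted p was 0.112, and 0.00227 with the array number as a block.

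Slit2, Slit3 and their receptor Robo1 all fell. Slit3 had 107, 31.9, 91.5, 151 and 74.6 in dysplasia, against 429, 319.6, 431, 531 and 439 in transgenic lung and 483, 578, 463, 446 and 513 in non-transgenic tissue. It was called lower in both comparisons and the groups were far apart, but the dysplasia signals lie near the limit of 100. Slit3 passed this limit only through the arrays of the other groups, so neither a fold nor a p is given. Robo1, a receptor of both Slits on epithelium and endothelium, gave 95.2, 128, 87.9, 141 and 78.6 in dysplasia, against 255, 382, 378, 323 and 439 in transgenic lung and 394, 462, 486, 479 and 497 in non-transgenic tissue. It fell 3.35-fold (-1.37 ± 0.15, adjusted p = 4.85e-05) and 4.37-fold (-1.73 ± 0.12, adjusted p = 1.42e-06), with no overlap. Slit2 fell to 1044 ± 157 in dysplasia, against 1739.6 ± 186 in transgenic lung and 1992 ± 199 in non-transgenic tissue (adjusted p = 0.000774 and 8.21e-05).

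Netrins and Unc5 receptors fell for 2 of 3 tested genes each in both comparisons, against 21.0% and 26.0% of all tested genes. Ntn1, a laminin-like cue that attracts or repels by its receptor, had 989, 780.5, 855, 1125 and 857 in dysplasia, against 3064, 2529, 2339.5, 2717 and 2518 in transgenic lung and 3235, 2747, 2312, 2349 and 2334 in non-transgenic tissue. It was 2.86-fold (-1.47 ± 0.12, adjusted p = 6.21e-06) and 2.82-fold lower (-1.44 ± 0.13, adjusted p = 5.55e-06), with all dysplasia arrays below the others. Ntn4, a netrin of basement membranes, gave 1565, 1467, 1082, 1963 and 1508 in dysplasia, against 3261, 2694, 2646, 3440.1 and 3144 in transgenic lung and 3876, 3510.2, 3554, 3522 and 3296 in non-transgenic tissue. It fell 2.0-fold (-0.99 ± 0.15, adjusted p = 0.000334) and 2.34-fold (-1.22 ± 0.13, adjusted p = 2.64e-05), again without overlap. Ntn5 averaged 123 ± 28.6 in dysplasia, 98.2 ± 44.5 in transgenic lung and 85.6 ± 32.8 in non-transgenic tissue, near the signal limit, and made no call (adjusted p = 0.418 and 0.119).

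Unc5c, a receptor for netrin-1 repulsion, had 123, 151, 106, 269.9 and 183 in dysplasia, against 518, 516, 411, 617 and 561 in transgenic lung and 586, 671, 745, 564 and 904 in non-transgenic tissue. It fell 3.15-fold (-1.44 ± 0.18, adjusted p = 0.000128) and 4.17-fold (-1.81 ± 0.19, adjusted p = 2.21e-05). Dysplasia 4 was the highest of its group and lay below all others. Unc5a fell to 106 ± 23.6 in dysplasia, against 160.4 ± 23.1 in transgenic lung and 191 ± 25.2 in non-transgenic tissue (adjusted p = 0.0168 and 0.00125). Unc5b, known from endothelial tip cells, averaged 499.97 ± 87.6 in dysplasia, 377 ± 102 in transgenic lung and 473 ± 131 in non-transgenic tissue, with no call (adjusted p = 0.102 and 0.718). With the array number as a block it was higher than in transgenic tissue (adjusted p = 0.0109).

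Genes around these cues and receptors were taken from 2 further lists. Of 18 co-receptors and related ligands 11 were tested. Of these, 2 rose and 5 fell against transgenic tissue, and 2 rose and 7 fell against non-transgenic tissue. Between transgenic and non-transgenic tissue limma called 0 of them. Over all tested genes 18.6% rose and 21.0% fell in the first comparison and 24.7% and 26.0% in the second, and 1.59% and 0.121% in the third. Chl1, a neural adhesion protein of the L1 family, averaged 424 ± 56.4 in dysplasia, 34.4 ± 17.0 in transgenic lung and 13.9 ± 7.21 in non-transgenic tissue. It is 1 of the 2 genes called higher in both comparisons, but it passed the limit of 100 through its dysplasia signal and lay under it in both other groups, so neither a fold nor a p is given. Robo4, the Robo receptor of endothelium, averaged 412 ± 89.3, against 939 ± 116 and 1024 ± 51.7 (adjusted p = 0.000113 and 1.31e-05). Rgma, a repulsive ligand of neogenin, was lower in both comparisons (log2 differences -0.59 against transgenic and -0.63 against non-transgenic tissue), as were Boc, a receptor of hedgehog proteins (-0.77 and -0.80), Flrt3, a ligand of Unc5 receptors (-0.98 and -1.36), and Neo1, the receptor neogenin (-0.67 and -0.97).

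Of 28 cytoplasmic effectors 25 were tested, of which 3 rose and 10 fell against transgenic, 5 rose and 11 fell against non-transgenic tissue, and 0 differed between transgenic and non-transgenic tissue by limma (Fyn, Nck2 and Fes at an unadjusted p under 0.05). The shares over all tested genes are those given for the co-receptors. Arhgef15, an exchange factor known from Eph signalling and endothelium, fell to 418 ± 63.0 in dysplasia, against 1689 ± 205 in transgenic lung and 1927 ± 125 in non-transgenic tissue (adjusted p = 1.79e-06 and 1.25e-07). Rnd1, a small GTPase that binds plexins, fell to 101 ± 11.9, against 329.8 ± 83.4 and 467 ± 126 (adjusted p = 0.000101 and 6.49e-06). Vav3, an exchange factor downstream of Eph receptors, was lower by -1.22 and -1.23 on the log2 scale. Dpysl3, a collapsin response mediator, was lower by -0.80 and -0.87, and Fyn, a kinase that plexins and Eph receptors engage, by -1.06 and -1.38.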

How the data were processed

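Affymetrix mouse genome arrays (15, with 45101 probe sets each) were read. The authors made the deposited intensity values with GCOS, version not given in the sources used here, scaling each array to a common target. The values were used as deposited, on their linear scale. After 64 control probe sets were left out, 34945 probe sets had 1 gene symbol in the array annotation, 932 had several and 9160 none, and names came from single symbols only. Unc5cl, Ntng, Slitrk and Robo4 genes were not counted among the members.

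Probe sets with a mean signal above 100 were tested with limma 3.58.1 in R 4.3.3 on log2 of the signal plus 50, which understates the change of dim genes, each comparison on its own 10 arrays, unpaired as in the study's methods. P-values were adjusted by Benjamini-Hochberg over 21658 probe sets at a threshold of 0.05. Shares of all genes use 1 brightest probe set for each of 11603 genes. Fold changes are ratios of mean signals. Precision was limited by the number of arrays, by dim signals, and for some genes by spread that moved with the actin ratio. Members with an adjusted p under 0.05 and a log2 difference of at least 1 are given by array, and of the 2 further lists the 4 genes with the smallest p per comparison are named when called. Members, lists and named genes were chosen with earlier results of these data known.

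Dysplasia and transgenic tissue came from the same mice, but whether the array number names the mouse is not stated. Their same-numbered arrays deviated together (correlations of 0.219 to 0.773, mean 0.612, against -0.150 for different numbers). Of these 10 arrays 10 correlated best with their own number. At number 4, however, Xist was 9674 in dysplasia and 85.0 in transgenic tissue. Same-numbered transgenic and non-transgenic arrays, from different mice, also deviated together (0.135 to 0.793, mean 0.452). Only 4 of those 10 correlated best with their own number. The fit was also run on simulated data with 200 changed probe sets. Those arrays were drawn independently and far fewer probe sets changed than were called here, so the run does not cover these features of the data. Alternatives changed the offset, normalization, signal limit, arrays fitted, block, variance trend, actin and Xist covariates and choice of probe set, or left out arrays. Promoter windows were RefSeq's (GRCm38.p6), the first listed for each gene. Raw scans were not analysed here.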

Additional observations from a re-analysis of the deposited data

Results flagged for a closer look

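Of 159 groups of 5 arrays examined over the 53 tested guidance genes, 10 held an array whose gap to the next was more than 0.71 of the whole range of the group, and chance flags about 1 in 20 groups. In dysplasia, array 1 was lowest for Efna1 (1545, the others 1783 to 1826) and highest for Ephb4 (702, the others 461 to 486), and array 2 was lowest for Sema4b (346, the others 417 to 440.1). In transgenic tissue, array 1 was highest for Plxna2 (2083, the others 484 to 848) and lowest for Sema3e (2278, the others 3028 to 3311), and array 2, whose labels conflict, was lowest for Sema3g (2595, the others 3686 to 3998). Transgenic 4 was lowest for Efna2 (162, the others 209 to 224), and transgenic 5 was highest for Sema4f (1347, the others 1010.3 to 1091) and for Unc5b (557, the others 321 to 362). In non-transgenic tissue array 2 was highest for Sema4c (911, the others 681 to 746).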

How the results depend on the processing

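Of the 40 calls against transgenic tissue 31 held under every alternative, and of the 45 calls against non-transgenic tissue 39 held, with 0 reversed. Over the settings other than leaving out 1 array, the genes called higher against transgenic tissue numbered 11 to 17 and lower 24 to 28, and against non-transgenic tissue 13 to 17 and 25 to 30. Leaving out 1 array gave 11 to 16 higher and 24 to 27 lower against transgenic tissue, 14 to 16 and 28 to 29 against non-transgenic tissue, and 0 between transgenic and non-transgenic tissue in either direction. Between these last groups 1 gene was lower with the array number as a block (Epha4) and 1 was higher with the most variable probe set per gene (Sema4a), and the cause was not tested. With the block the counts were 17 higher and 28 lower against transgenic tissue, and 16 higher and 30 lower against non-transgenic tissue. Epha4 was the gene added against non-transgenic tissue. Same-numbered dysplasia and non-transgenic arrays are not paired (mean correlation 0.405, lowest -0.00366), and neither are transgenic and non-transgenic arrays. The block ended 0 calls, and it changed no other call than these 2 of Epha4 and the 5 given beside Efna3, Efnb1, Plxna2, Sema4b and Unc5b.

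Settings other than leaving out 1 array ended calls of Efna2, Plxna1, Plxna2, Plxna4, Sema3b and Sema6c, and some others. Against transgenic tissue Sema6b lost its call with all 3 groups in 1 fit. Slit2 lost it there with the most variable probe set (adjusted p = 0.107) and Unc5a after quantile normalization (0.0984). Against non-transgenic tissue Efnb1 lost it (0.0564 with all 3 groups in 1 fit, 0.153 with the most variable probe set). Nrp1 lost it with the most variable probe set in both (0.0778 and 0.0595). With Xist as a covariate Plxna2, Plxna4 and Sema6c made no call against non-transgenic tissue.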

Other observations

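Of the tested guidance genes 21 have 2 or more tested probe sets, and no gene had opposite calls between them. In the comparison with transgenic tissue the probe sets of 20 of the 21 genes had 1 sign. Sema4a was the exception: its second probe set was higher in dysplasia than in transgenic (log2 difference 0.35, adjusted p = 0.0494) and non-transgenic tissue (1.09, adjusted p = 3.98e-05), and higher in transgenic than in non-transgenic tissue (0.75, adjusted p = 0.0328), while its brightest made no call. A second probe set of Plxna2 was higher in dysplasia (0.55, adjusted p = 0.0151 against transgenic, 0.71, adjusted p = 0.000349 against non-transgenic tissue) and one of Sema5a was lower (-0.54, adjusted p = 0.00531, and -0.62, adjusted p = 0.00165). These probe sets were chosen after their values were seen.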
